A study of Mus musculus with 8 samples.

Results

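DNA methylation is written and erased by a small group of genes, and 7 of them were followed here: the maintenance genes Dnmt1 and Uhrf1, the de novo methyltransferase genes Dnmt3a and Dnmt3b, and the oxidase genes Tet1, Tet2 and Tet3. They were chosen by name, as every probe set whose platform annotation held exactly 1 gene symbol equal to one of these. This gave 7 of 19958 genes and 126 of 208881 probe sets. Dnmt1 had 42 probe sets, Dnmt3a 28, Dnmt3b 17, Tet2 14, Tet1 13, Uhrf1 8 and Tet3 4. A pair of Tet1 probe sets held identical values on every array.

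RNA came from lineage-negative, Sca1-positive and cKit-positive cells of mice, a sorted population of blood stem cells and early progenitors, measured on Affymetrix Mouse Gene 1.0 ST arrays. The 3 groups were Hmga2+/+ adult bone marrow aged 8 to 12 weeks (n = 2), Hmga2-/- E14.5 (embryonic day) fetal liver (n = 3) and Hmga2+/+ E14.5 fetal liver (n = 3). All groups share the same sort, and adult and fetal cells differ in organ as well as in age, so age and organ cannot be told apart. The labels call the samples of a group biological replicates; pooling of animals and the way the Hmga2 allele was made are not stated in the labels.

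Methyl groups are placed on cytosine, mostly where a guanine follows. After DNA replication the new strand lacks them, and Uhrf1 binds the half-marked sites and brings in Dnmt1, which copies the pattern, while Dnmt3a and Dnmt3b can mark sites that carried no methyl group. Tet1, Tet2 and Tet3 oxidise methylated cytosine, using oxygen, iron and 2-oxoglutarate, and the oxidised base is lost at replication or cut out by repair. In blood formation, Dnmt3a and Tet2 are known as genes whose loss changes the self-renewal of stem cells.

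Levels are given as log2 of the deposited RMA intensity, averaged over a gene's probe sets, and no gene's level is set against another's. Where the dimmer of 2 group means lay below background, a fold is given as "at least", taking on each array of that group the higher of background and the measured value. A gene mean was held to be above background where it passed 5.83, the 95th percentile of 980 olfactory receptor genes, whose median was 4.23, and a probe set where it passed 6.01, found in the same way. All 7 genes had a mean above background in every group, Tet2 in adult marrow by the least, at 6.02. Changes are differences of log2 values with the standard error (SE) of limma, and a gene was called at a Benjamini-Hochberg adjusted p under 0.05 over all 19958 genes. The 3 comparisons share arrays, since each group enters 2 of them.

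The labels and the arrays were checked first. Hmga2, which encodes a chromatin protein with AT hooks, read 5.89, 5.88 and 6.08 in knockout fetal cells, against 9.24, 9.01 and 8.83 in wild-type fetal cells (log2 fold change -3.08, SE 0.19, limma adjusted p = 0.000448). In adult marrow it read 6.61 and 7.19. Of the 11 measured marker genes of the gate, 10 were above background on average, and Kit, the sorted cKit receptor, lay between 9.64 and 10.28 on all arrays. Ly6a, which encodes Sca1, read 8.99 and 8.44 in adult marrow, between 5.59 and 7.25 in knockout fetal cells and between 6.64 and 7.39 in wild-type fetal cells. The 2 adult arrays correlated with each other at 0.8406 (Pearson r of log2 values over all probe sets). Adult array 2 was closer to wild-type fetal arrays 1 (0.8552) and 2 (0.8725), and adult array 1 to wild-type fetal array 2 (0.8425). Both were less close to the rest of the fetal arrays. Wild-type fetal array 3 also stood apart from its group. It correlated more closely with the 3 knockout arrays (from 0.891 to 0.898) than with the other wild-type fetal arrays (0.859 and 0.876). The 9 measured hepatocyte markers lay 0.535 above their mean over arrays on average there, against values from -0.137 to -0.002 on the other arrays, with Alb at 6.65 and Afp at 6.50 on that array. On the mean over all arrays 3 of the 9 were above background, and the means of Alb and Afp were not so in any group. The part of that array's makeup in the results was not tested; values without it stand beside those it touches.

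Dnmt3b was the gene of the group called lower in adult marrow. It read 7.89 and 7.94 in adult marrow, 9.58, 9.37 and 9.51 in knockout fetal liver, and 9.35, 9.48 and 9.53 in wild-type fetal liver. Both adult arrays lay below all fetal arrays, and the fetal groups overlapped. Against wild-type fetal liver Dnmt3b was 2.91-fold lower in adult marrow (log2 fold change -1.54, SE 0.15, 95% interval -1.89 to -1.19, adjusted p = 0.00235). Among all genes 2.36% were called lower in this comparison and 3.19% in either direction, and Dnmt3b was the only called gene of the 7. It kept its call without wild-type fetal array 3 (log2 fold change -1.50, adjusted p = 0.0101). In bulk RNA, fewer cells of a type and less RNA per cell cannot be told apart.

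The other de novo gene, Dnmt3a, read 7.49 and 7.58 in adult marrow, 8.04, 8.11 and 8.32 in knockout fetal liver, and 8.47, 7.97 and 8.39 in wild-type fetal liver. Both adult arrays again lay below all fetal arrays. The change against wild-type fetal liver was -0.74 (SE 0.19, 95% interval -1.17 to -0.31) and missed the threshold after adjustment (unadjusted p = 0.00372, adjusted p = 0.0769), in a comparison where 18.6% of all genes had an unadjusted p under 0.05.

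Uhrf1, the reader of half-marked sites, read 9.27 and 8.65 in adult marrow, 9.52, 9.55 and 9.40 in knockout fetal liver, and 9.67, 9.43 and 9.44 in wild-type fetal liver. The adult arrays lay below the fetal ones but differed from each other by more than any fetal pair did. The change against wild-type fetal liver was -0.55 (SE 0.20, adjusted p = 0.191). It was -0.24 without adult array 2 and -0.86 without adult array 1, neither of them called.

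Dnmt3b, Dnmt3a and Uhrf1 are thus the 3 genes of the group whose adult arrays all lay below every wild-type fetal array, a separation that 15.7% of all genes showed in this direction. The 250 bases before a RefSeq start of each are shown for that reason, from build GRCm38.p6 and on the plus strand, with GGGCGG (the GC box, on either strand) and the letters of E2F sites in capitals.
Dnmt3b, chr2:153649199-153649448: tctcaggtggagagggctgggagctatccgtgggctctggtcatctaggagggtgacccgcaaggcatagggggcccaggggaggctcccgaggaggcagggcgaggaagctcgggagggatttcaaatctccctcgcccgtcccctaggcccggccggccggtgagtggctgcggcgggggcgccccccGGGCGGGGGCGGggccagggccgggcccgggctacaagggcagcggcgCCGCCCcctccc
Dnmt3a first start, chr12:3806730-3806979: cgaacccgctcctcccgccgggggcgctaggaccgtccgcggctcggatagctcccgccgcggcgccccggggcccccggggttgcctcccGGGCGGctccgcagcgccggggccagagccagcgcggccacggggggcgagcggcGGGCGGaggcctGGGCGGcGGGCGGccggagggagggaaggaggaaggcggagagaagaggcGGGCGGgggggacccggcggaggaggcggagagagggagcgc
Uhrf1 second start, chr17:56304063-56304312: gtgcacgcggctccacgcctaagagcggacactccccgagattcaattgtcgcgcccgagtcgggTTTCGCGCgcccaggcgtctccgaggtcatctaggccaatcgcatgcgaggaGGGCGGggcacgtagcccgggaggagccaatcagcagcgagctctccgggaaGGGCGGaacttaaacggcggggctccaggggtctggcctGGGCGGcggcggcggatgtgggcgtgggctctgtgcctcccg
The promoter windows of all 7 genes were in the table, with 12 starts in all. Starts are numbered among those listed. The RefSeq span of Dnmt3a begins at 3801559, ahead of its first listed start, and that of Dnmt3b at 153649411, inside the window shown. Of 32851 windows of this length, 32.7% held a GC box, and these held 3, 5 and 3. The windows shown held 21 CpG for Dnmt3b, 38 for Dnmt3a and 30 for Uhrf1, against a median of 6 over all windows. For Dnmt3a and Uhrf1 the start with the most GC boxes is shown, a choice made after seeing the sequences. The other starts held 40 CpG with 4 GC boxes and 15 CpG with 1 GC box for Dnmt3a, and 10 CpG with 1 GC box for Uhrf1. For the genes not shown, the windows held 51 CpG for Tet2, 17 for Tet3 and 15 for Tet1, with 1 GC box each. The starts of Dnmt1 held 2, 7 and 26 CpG, with 0, 0 and 2 GC boxes. Windows rich in CpG with GC boxes were thus not particular to the genes shown. E2F sites were searched as TTTCCCGC, TTTCGCGC, TTTGCCGC and TTTGGCGC on both strands, which 1.86% of windows held. Of the 12 windows, the second start of Uhrf1 and the third start of Dnmt1 held 1 each. These letters are a description of the windows and not evidence of binding.

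The other 4 genes did not separate adult marrow from wild-type fetal liver. Dnmt1, the maintenance methyltransferase, read 9.14 and 9.54 in adult marrow, 9.82, 9.55 and 9.83 in knockout fetal liver, and 9.37, 9.48 and 9.75 in wild-type fetal liver. Its change in adult marrow was -0.19 (95% interval -0.63 to 0.25, adjusted p = 0.640). Tet1 read 7.34 and 8.16 in adult marrow, 8.44, 8.45 and 8.75 in knockout fetal liver, and 7.85, 8.36 and 7.88 in wild-type fetal liver. The adult arrays of Tet1 were apart by more than the group means were, and the change was -0.28 (95% interval -0.88 to 0.32, adjusted p = 0.609). Tet2 read 5.85 and 6.18 in adult marrow, 6.69, 6.42 and 6.68 in knockout fetal liver, and 5.90, 6.53 and 6.43 in wild-type fetal liver, a change of -0.27 (adjusted p = 0.557). Tet2 was thus close to background on adult array 1 and on wild-type fetal array 1. Tet3 read 6.18 and 7.50 in adult marrow, 6.71, 7.51 and 6.84 in knockout fetal liver, and 6.58, 6.35 and 7.0 in wild-type fetal liver, a change of 0.19 (adjusted p = 0.827). The sign for Tet3 turned without adult array 2, to -0.47, and the signs for Tet1 and Dnmt1 turned without adult array 1, to 0.13 and 0.01. The plot of levels by array shows the separation for Dnmt3b and the spread of the adult pair for Tet3.

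**Figure D1:**
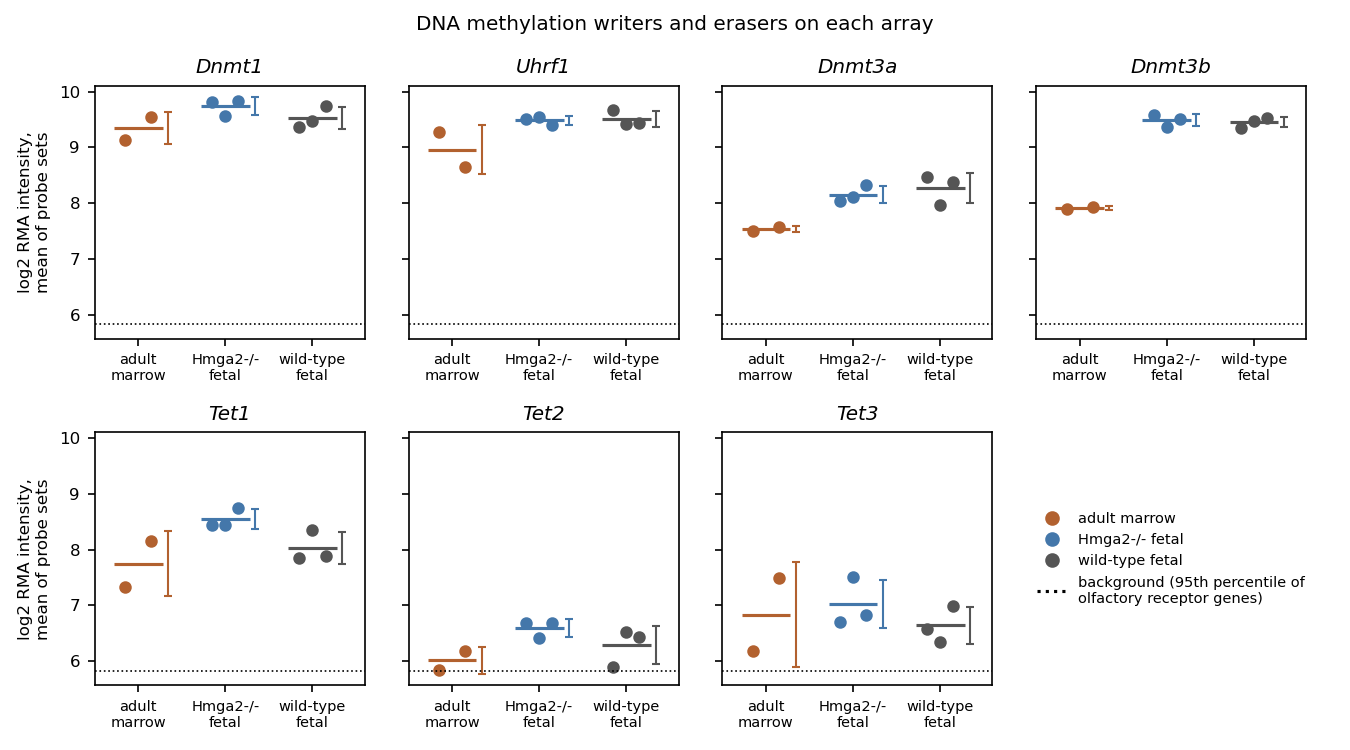
Log2 RMA intensity averaged over probe sets (y axis) for each of the 7 genes, in adult marrow (n = 2), Hmga2-/- fetal liver (n = 3) and wild-type fetal liver (n = 3). Points are arrays, bars are group means, the error bars beside them are SDs and the dotted line is the background level of 5.83; the adult arrays of Dnmt3b, at 7.89 and 7.94, lie below all fetal arrays.

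Loss of Hmga2 was not accompanied by a called change in any of the 7 genes. In this comparison limma called 2 of 19958 genes, or 0.01%, both lower: Hmga2 itself and Igf2bp2, an RNA-binding protein gene named after its value was seen, while 1523 genes had an unadjusted p under 0.05, or 7.63%. Dnmt3b differed by 0.03 (95% interval -0.28 to 0.34, adjusted p = 0.963), and Uhrf1 by -0.02 (95% interval -0.44 to 0.39, adjusted p = 0.978). For these 2 genes the interval leaves out changes of 0.5 on the log2 scale in either direction. Dnmt1 had a change of 0.21 (95% interval -0.19 to 0.60, adjusted p = 0.772) and Dnmt3a one of -0.12 (95% interval -0.51 to 0.27, adjusted p = 0.864).

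The Tet genes had the larger differences between knockout and wild-type fetal cells. Tet1 was the only gene of the 7 whose knockout arrays all lay above the wild-type ones, which 5.94% of all genes showed in this direction. Its change was 0.52 (SE 0.24, 95% interval -0.02 to 1.05, unadjusted p = 0.0558, adjusted p = 0.649). Tet3 had a change of 0.38 (95% interval -0.40 to 1.16, adjusted p = 0.789) and Tet2 of 0.31 (95% interval -0.14 to 0.76, adjusted p = 0.709), both with overlapping arrays. None of the 3 passed the test, and without wild-type fetal array 3 Tet1 had a change of 0.44 (adjusted p = 0.473).

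Set against knockout fetal liver, adult marrow again had Dnmt3b as its only called gene of the 7, in a comparison that called 5.8% of all genes lower and 8.91% in either direction. Dnmt3b was 2.97-fold lower in adult marrow (log2 fold change -1.57, SE 0.15, 95% interval -1.92 to -1.22, adjusted p = 0.00215). The changes of the others were -0.80 for Tet1 (adjusted p = 0.0883), -0.62 for Dnmt3a (0.0745), -0.58 for Tet2 (0.126), -0.53 for Uhrf1 (0.128), -0.40 for Dnmt1 (0.211) and -0.18 for Tet3 (0.779), with limma's adjusted p in brackets. The adult arrays lay below all knockout arrays for every gene but Tet3, a separation that 20.6% of all genes showed downwards. The order of group means was knockout fetal liver, wild-type fetal liver and then adult marrow for 4 of the 7 genes: Dnmt1 (9.34 ± 0.29 in adult marrow, 9.74 ± 0.16 in knockout and 9.53 ± 0.19 in wild-type fetal liver), Dnmt3b (7.92 ± 0.03, 9.48 ± 0.11 and 9.46 ± 0.09 in the same groups), Tet1 (7.75 ± 0.58, 8.55 ± 0.18 and 8.03 ± 0.29) and Tet2 (6.02 ± 0.24, 6.60 ± 0.15 and 6.29 ± 0.34; SD, n = 2, 3 and 3). Wild-type fetal liver was the highest for Uhrf1 (8.96 ± 0.44 in adult marrow, 9.49 ± 0.08 in knockout and 9.51 ± 0.14 in wild-type fetal liver) and Dnmt3a (7.54 ± 0.06, 8.15 ± 0.15 and 8.28 ± 0.27), and the lowest for Tet3 (6.84 ± 0.93, 7.02 ± 0.43 and 6.64 ± 0.33). The fetal groups were neighbours at the top for 6 genes and did not differ beyond the test for any, and the only step in these orders that passed the test was the one down to adult marrow for Dnmt3b. The plot of changes sets the 3 comparisons side by side.

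**Figure D2:**
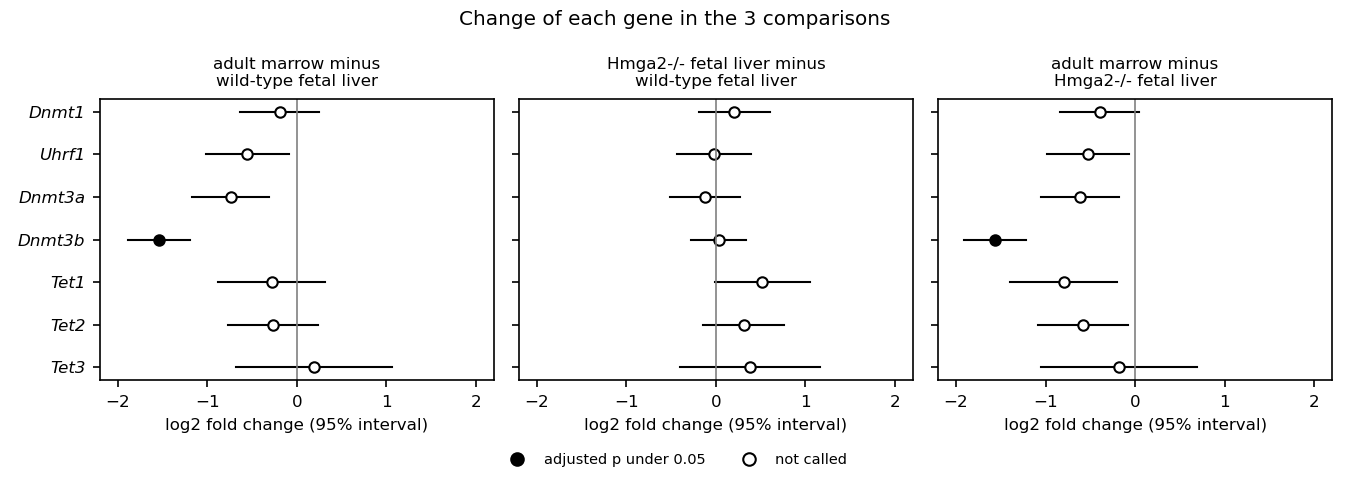
Log2 fold change (x axis) with its 95% interval for the 7 genes in the 3 comparisons; filled points passed an adjusted p of 0.05. Dnmt3b is filled in both comparisons of adult marrow, at -1.54 and -1.57, and lies at 0.03 in the comparison of knockout with wild-type fetal liver.

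Each gene was also read probe set by probe set, since averages over a transcript can hide a change in part of it. The files do not say which exon a probe set lies in. For Dnmt3b, 15 of 17 probe sets were below 0 in adult marrow against wild-type fetal liver, as were 12 of the 13 that were above background in both groups, and 14 of the 17 had all adult arrays below all wild-type fetal arrays, as 12.8% of all probe sets did. The lowest was probe set 10477332, with 5.63 and 4.61 in adult marrow against 7.91, 9.09 and 8.33 in wild-type fetal liver. Its adult mean lay below background, so it was at least 5.4-fold lower, and among those above background in both groups the lowest change was -2.94 at probe set 10477330. The highest was 0.58 at probe set 10477336, with 10.40 and 10.77 in adult marrow against 10.15, 10.38 and 9.46 in wild-type fetal liver. So 10477336 did not follow the mean of the gene, its adult arrays lying above all wild-type fetal ones. No probe set of the 7 genes was called on its own in this comparison, where 0.023% of all probe sets were. Against knockout fetal liver 1 was: 10477332 of Dnmt3b, at least 8.88-fold lower with its adult mean below background (measured log2 fold change -4.04, adjusted p = 0.0412), among 0.107% of all probe sets called. In that comparison 11 of the 17 Dnmt3b probe sets had all adult arrays below and 1 had them above the knockout ones, as 18.4% and 18.5% of all probe sets did.

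Uhrf1 had probe sets on both sides. In adult marrow against wild-type fetal liver, 5 of its 8 were below 0, the lowest at -2.19 (probe set 10446077). The highest was probe set 10446076, at least 1.59-fold higher, with its wild-type fetal mean below background. Probe set 10446080 read 9.05 and 8.76 in adult marrow, against 11.15, 10.20 and 10.65 in wild-type fetal liver. Probe set 10446081 read 10.90 and 10.96 in adult marrow, against 9.80, 10.41 and 9.95 in wild-type fetal liver. The average over the gene therefore joins probe sets with adult arrays below and others with adult arrays above the wild-type fetal ones. Of the 8, 4 had all adult arrays below and 2 all adult arrays above the wild-type fetal ones, as 12.8% and 12.5% of all probe sets did.

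For the others the ranges cover probe sets above background in both groups of the comparison, a choice made after seeing the data. In adult marrow against wild-type fetal liver, 22 of the 28 probe sets of Dnmt3a were so, with 19 of them below 0 and a range from -2.06 (10394231) to 0.81 (10394210). Dnmt1 had 35 of 42, with 25 below 0, from -1.35 (10591371) to 0.86 (10591409). Outside that range, 10591373 of Dnmt1 was at least 1.47-fold lower with its adult mean below background, and 10591410 at least 3.5-fold higher with its wild-type fetal mean below background. Tet1 had 12 of 13, with 10 below 0, from -1.47 (10369695) to 0.17 (10369700). Only 6 of the 14 Tet2 probe sets were above background in both groups, with 4 below 0, from -1.21 (10502287) to 1.00 (10502288). All 4 of Tet3 were, with 1 below 0, from -0.67 (10545694) to 1.07 (10545695).

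In knockout against wild-type fetal liver, Tet1 had 12 of 13 probe sets above background in both groups, of which 10 were above 0, from -1.33 (10369701) to 1.61 (10369694). Probe set 10369694 read 9.86, 9.62 and 9.65 in knockout, against 7.26, 8.95 and 8.08 in wild-type fetal liver, with no overlap. Of all 13, 3 had the knockout arrays above and 1 had them below all wild-type fetal arrays, a separation that 6.57% of all probe sets showed in each direction. Changes lay between -0.30 (10446078) and 0.11 (10446081) for 7 of the 8 Uhrf1 probe sets, between -1.30 (10477327) and 0.72 (10477332) for 16 of the 17 of Dnmt3b, and between -1.05 (10394219) and 0.88 (10394222) for 23 of the 28 of Dnmt3a. Tet2 ran from -0.53 (10502286) to 0.91 (10502288) over 8 of its 14, with 10502296 at least 1.42-fold higher as its wild-type fetal mean lay below background. Tet3 ran from 0.08 (10545696) to 1.31 (10545693) over 3 of its 4, with 10545694 at least 1.6-fold lower as its knockout mean lay below background. No probe set of the array was called in that comparison.

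**Figure D3:**
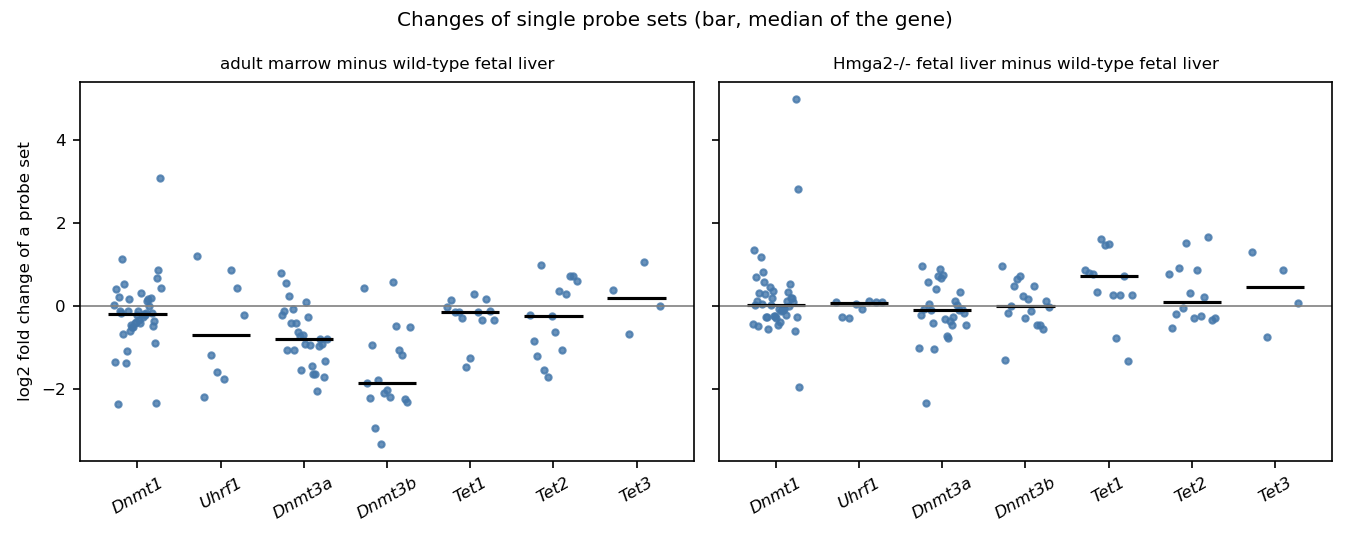
Log2 fold change of each probe set (y axis) of the 7 genes in adult marrow against wild-type fetal liver (left) and in Hmga2-/- against wild-type fetal liver (right); points are probe sets and bars their medians. Of the 17 Dnmt3b probe sets 15 lie below 0 on the left, and a single Dnmt1 probe set reaches 5.00 on the right, where its wild-type fetal mean lay below background. Probe sets below background are drawn at their measured values.

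That Dnmt1 probe set, 10591408, read 10.30, 10.21 and 9.89 in knockout fetal liver, against 5.17, 2.25 and 7.96 in wild-type fetal liver, and 3.94 and 7.66 in adult marrow. The knockout arrays lay close together and the wild-type arrays did not. With its wild-type fetal mean below background, it was at least 11.1-fold higher in knockout fetal liver (measured log2 fold change 5.00, SE 1.41), and it did not pass the test over all probe sets (adjusted p = 0.687). The 38 probe sets of Dnmt1 above background in both groups ran from -0.60 (10591407) to 1.35 (10591371) in this comparison, with 18 of them below 0.

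Whether the probe sets of a gene shared a common change was tested over 17755 genes with limma's diffSplice F test. In adult marrow against wild-type fetal liver it called Dnmt3b (adjusted p = 0.00561) and Uhrf1 (adjusted p = 0.00193), among 1.96% of genes called. In knockout against wild-type fetal liver it called Dnmt1 (adjusted p = 0.000101), among 0.727%. The call of Dnmt3b was lost without wild-type fetal array 3 (0.0528), with only the arrays of the 2 groups (0.0539) and with the replicate number as a block (0.0585). That of Uhrf1 was lost with only the arrays of the 2 groups (0.0631). That of Dnmt1 was lost without wild-type fetal array 1 (0.0605) or 2 (0.501). The test takes the spread to be equal for all probe sets of a gene, and on simulated arrays with the measured, unequal spreads it made more false calls than its threshold allows. With Box's correction of the degrees of freedom for unequal spreads, an alternative added after seeing the data, none of these calls was kept: the adjusted p was 0.194 for Dnmt3b and 0.155 for Uhrf1 in the first comparison and 0.434 for Dnmt1 in the second. The corrected test called 0.253% and 0.0225% of genes. It used spreads estimated from few arrays, which differ to some degree even where the true spreads are equal, so it can be too strict. Unequal change within these transcripts is therefore not shown for adult against wild-type fetal cells or for the knockout. In adult marrow against knockout fetal liver the corrected test called Dnmt3b (adjusted p = 0.0235), among 3.71% of genes called. It called no other of the 7, while the uncorrected test had called 5 of the 7, among 17.4%. This call of Dnmt3b was not checked with arrays left out or without dim probe sets. Probe set 10477326 of Dnmt3b was below background in every group.

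**Figure D4:**
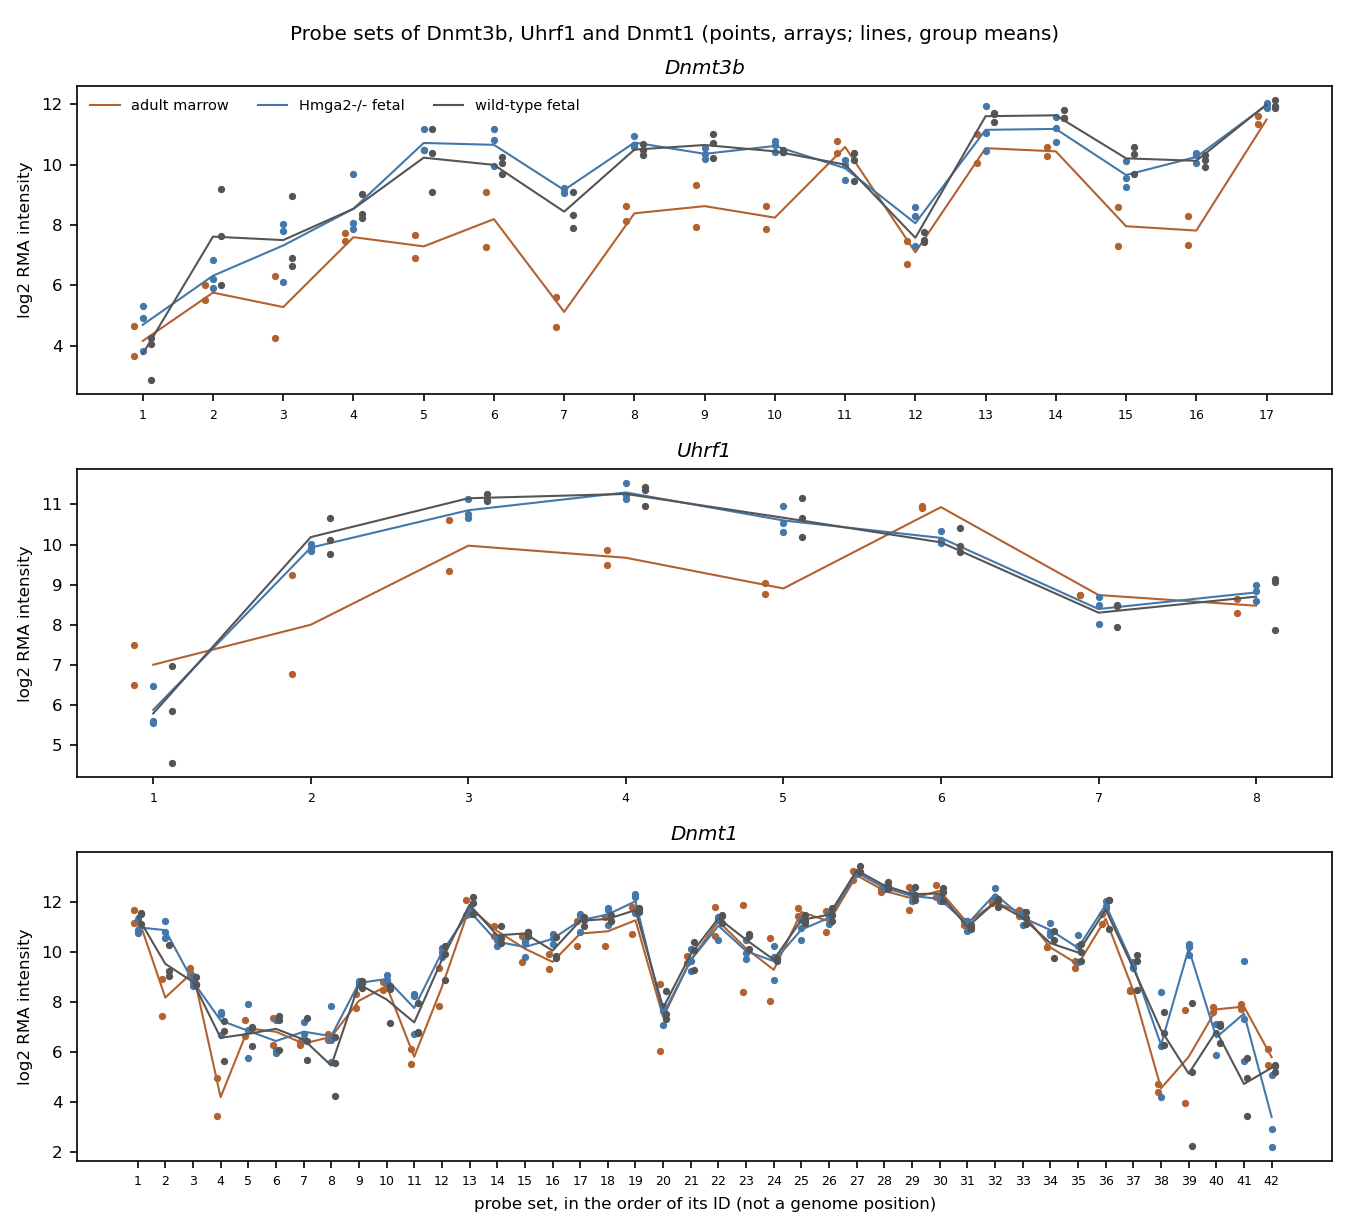
Log2 RMA intensity (y axis) of the probe sets of Dnmt3b, Uhrf1 and Dnmt1 in the order of their IDs (x axis); points are arrays and lines group means, in adult marrow, Hmga2-/- fetal liver and wild-type fetal liver. For Dnmt3b the adult line runs below both fetal lines at most probe sets and above them at 10477336, the eleventh.

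The genes around the pathway were read from 6 lists. Of 9 measured partners of maintenance, 1 was called lower and none higher in adult marrow against wild-type fetal liver. Among all genes 2.36% were called lower. The median change was -0.30, against 0.06 over all genes and -0.08 over the 11713 genes above background in at least 1 group. The called gene was Hells, a chromatin remodeller needed for normal methylation, at 8.28 and 8.73 in adult marrow against 9.44, 9.77 and 9.72 in wild-type fetal liver (log2 fold change -1.13, SE 0.19, adjusted p = 0.0183). It lost its call without adult array 1, without wild-type fetal array 2 or 3 and with only the arrays of the 2 groups, with an adjusted p of at most 0.0812. Hdac2, a histone deacetylase, had a change of -0.66 (adjusted p = 0.0973), Usp7, a deubiquitinase that binds Dnmt1, of -0.35 (0.251), and Dppa3 was below background in both groups.

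Of 13 genes that guide de novo methylation or lay down the histone marks it follows, 1 was called lower, as 2.36% of all genes were. The median was -0.17. Suv39h2, a methyltransferase of histone H3 in heterochromatin, read 5.22 and 6.23 in adult marrow against 7.31, 7.36 and 7.61 in wild-type fetal liver, at least 2.63-fold lower as the adult mean was below background (measured log2 fold change -1.70, adjusted p = 0.0163). Without wild-type fetal array 3, and in 3 further alternatives (adjusted p up to 0.756), it was not called. Trim28, a corepressor at silenced repeats, had a change of -0.44 (adjusted p = 0.140), Nsd2, a histone methyltransferase, of -0.71 (0.171), and Setd2, another, of -0.45 (0.291). Dnmt3l, the cofactor without catalytic activity, was below background in all groups.

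No gene was called among 18 that remove oxidised bases or partner the Tet proteins, with a median of 0.02. Ung, a glycosylase that removes uracil, had a change of 0.53 (adjusted p = 0.179) and Parp1, a sensor of strand breaks, of -0.55 (0.215). Neil1, a glycosylase, averaged 5.83 in adult marrow, at the background level, and lay below it in wild-type fetal liver, so no fold is given (adjusted p = 0.318). Neil2 was below background in both groups. None of 8 readers of methylated CpG and their partners was called either, with a median of -0.17. Zbtb4, a zinc finger protein, had a change of 1.05 (adjusted p = 0.0700), and Gatad2a, a subunit of the NuRD complex, of -0.78 (0.0821). Mbd1 had a change of -0.55 (0.124) and Gatad2b of -0.17 (0.596).

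Of 19 genes that supply the methyl donor or 2-oxoglutarate, 2 were called lower, as 2.36% of all genes were, and none higher. The median was -0.58. Adk, the kinase that clears adenosine in the methylation cycle, was 2.6-fold lower in adult marrow (log2 fold change -1.38, SE 0.19, adjusted p = 0.00925), and was called in all 19 alternatives. Shmt1, which feeds folate with carbon from serine, was 2.43-fold lower (log2 fold change -1.28, SE 0.20, adjusted p = 0.0136). It was not called without adult array 1, with only the arrays of the 2 groups, with the replicate number as a block or with medians of probe sets. Idh3a, a subunit of a dehydrogenase that makes 2-oxoglutarate, had a change of -1.08 (adjusted p = 0.0920), and Mtrr, which reactivates methionine synthase, was at least 1.85-fold lower, with its adult mean below background, without passing the test (0.0673). Without wild-type fetal array 3 the counts of called genes were 0 for the partners, 0 for the de novo guides and 2 for this list.

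The genes of S phase had the lowest median, -0.83, with 6 of 33 called lower and none higher. Among all genes 2.36% were called lower. Prim1, a primase subunit, had a change of -1.82 (SE 0.19, adjusted p = 0.00293), Rrm1, a subunit of ribonucleotide reductase, of -1.21 (0.00995), Rrm2, its partner, of -1.01 (0.0136), and Mcm4, a subunit of the replicative helicase, of -1.24 (0.0154). Prim1 and Rrm1 were called in all 19 alternatives. Rrm2 and Mcm4 lost their call with only the arrays of the 2 groups and with the replicate number as a block. Rrm2 also lost it without adult array 2, and Mcm4 without adult array 1 or wild-type fetal array 3 and with medians of probe sets. Without wild-type fetal array 3 the count was 3, with a median of -0.73. The mean of the S phase list, relative to its mean over arrays, was -0.68 and -0.50 in adult marrow, 0.26, 0.25 and 0.22 in knockout fetal liver, and 0.05, 0.10 and 0.29 in wild-type fetal liver. It was low on the same arrays as Dnmt3b, and its part in the Dnmt3b result was not tested. Single markers of other cells and of the gate list were called in adult marrow too. Dntt of lymphoid cells, Pf4 and Itga2b of megakaryocytes and Ctsg of granulocytes were called higher, and Cd48, of the list of the gate, lower. Of 9 lymphoid markers 2 had changes above 0 and 7 below. The split was 6 and 1 for megakaryocyte, 4 and 4 for granulocyte and monocyte, and 8 and 3 for gate markers. In this comparison 0.832% of all genes were called higher. Dntt read 8.93 and 9.82 in adult marrow against 4.89, 4.58 and 4.33 in wild-type fetal liver and was called in all 19 alternatives, as against 15 for Pf4, 10 for Ctsg, 4 for Itga2b and 13 for Cd48, the last 4 losing their call without adult array 1 among others. The summed intensity of the 7 measured megakaryocyte markers, 6 of them above background, was 9.81 and 9.86 (log2) in adult marrow, from 8.95 to 9.35 in knockout and from 8.98 to 9.09 in wild-type fetal liver. That of the 9 lymphoid markers, Dntt included and 4 of them above background, was 9.78 and 10.36 in adult marrow. It ran from 9.09 to 9.94 in knockout and from 8.72 to 9.58 in wild-type fetal liver. Rag2, Cd3g and Cd79a were below background in every group. The 8 granulocyte and monocyte markers, 3 of them above background, summed to 11.02 and 10.65 in adult marrow, from 11.05 to 11.27 in knockout and from 11.20 to 11.51 in wild-type fetal liver. The hepatocyte, erythroid, macrophage and endothelial lists held no called gene. The part of these markers in the results was not tested.

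In knockout against wild-type fetal liver no gene of the 6 lists was called. The 2 with the smallest p were Cdca7 at 0.63 and Zbtb24, at or below background in both groups, among maintenance partners, and Suv39h1 at 0.56 with Zfp57 below background in both groups among de novo guides. Among base removal they were Neil3 at 0.48 and Neil1 below background in both groups. Among readers and their partners they were Mbd1 at -0.49 and Gatad2b at -0.35. Ahcyl1 at 0.50 and Mat2b at 0.47 led the methyl donor list, and Chaf1b at 0.65 and Cdc45 at 0.65 the S phase list. All had an adjusted p of 0.631 or more.

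Against knockout fetal liver the lists gave more calls in adult marrow, in a comparison that also called more genes in all. Of the 33 S phase genes 14 were called lower and none higher, where 5.8% of all genes were called lower and 3.11% higher. Of the 19 methyl donor genes 5 were called lower. These were Shmt1 at -1.48, Adk at -1.27, Mtap, which salvages methionine, at -1.99, Idh3a at -1.42 and Mthfd1, a folate enzyme, at -1.02. Shmt1 and Adk were called in all 19 alternatives, and Mtap, Idh3a and Mthfd1 in 13 each, all 3 losing their call with medians of probe sets and without adult array 1 or without knockout array 1 or 2. Among maintenance partners Hells, at -1.16, lost its call only without adult array 1, and Hdac2, at -0.84, was called in 12 alternatives, not without adult array 1 or without any one knockout array. Suv39h2, among de novo guides, was at least 2.79-fold lower with its adult mean below background, and lost its call only with medians of probe sets. Neil1 was the only gene of the 6 lists called higher, where 3.11% of all genes were, but it averaged 5.83 in adult marrow, at background, and lay below it in knockout fetal liver, and it was called in 14 of 19 alternatives.

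Markers of other cells and of the gate list were called in adult marrow against knockout fetal liver too. Dntt, Pf4 and Itga2b were higher, as was Vcam1 with both means below background. Tfrc of erythroid cells, Cd68 of macrophages, Rag1 of lymphoid cells and Cdh5 of endothelium were lower. Of the gate list, Ly6a was higher and Cd48 lower. Ly6a encodes the sorted Sca1 and read 5.59 on knockout array 1, below background. The counts were 2 of 7 megakaryocyte markers higher, 1 of 7 erythroid lower and 1 of 8 endothelial lower. Among 9 lymphoid, 8 macrophage and 11 gate markers 1 was higher and 1 lower in each list. Over all genes 3.11% were called higher and 5.8% lower. Changes were above 0 for 6 of 7 megakaryocyte, 4 of 7 erythroid, 3 of 8 endothelial, 5 of 9 lymphoid, 5 of 8 macrophage and 7 of 11 gate markers. No hepatocyte or granulocyte and monocyte marker was called. Of these, Dntt was called in all 19 alternatives and Cd68 in 6, the fewest, and their part in the results was not tested.

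**Figure D5:**
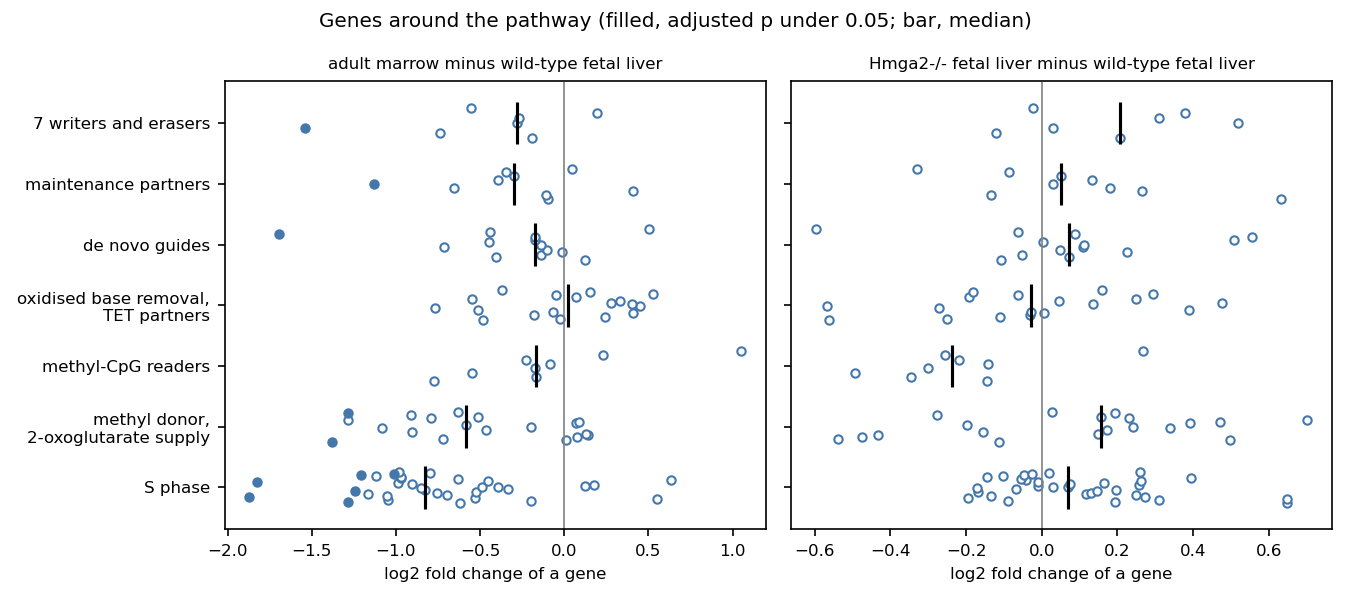
Log2 fold change (x axis) of the 7 genes and of the genes of 6 lists in adult marrow against wild-type fetal liver (left) and in Hmga2-/- against wild-type fetal liver (right); filled points passed an adjusted p of 0.05 and bars are medians. On the left the S phase list has 6 filled points and a median of -0.83, and on the right no point is filled.

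Likeness over the 8 arrays was searched among 11706 genes above background in at least 1 group, as a description of arrays that share 3 groups. Dnmt3b was most like Smn1 (Pearson r = 0.996), Klhl23 (0.995) and Rrm1 (0.991), and Dnmt3a like Rybp (0.982), Cdc25a (0.981) and Gemin4 (0.978). Uhrf1 was most like Utp4 (0.987), Rps6kb2 (0.985) and Nol10 (0.977), and Dnmt1 like Lyst, Slx4 and Txnl1 (0.976 to 0.978). For the Tet genes the nearest were Brca1, Itga5 and Tbc1d9b for Tet1 (0.951 to 0.963), 0610010F05Rik, Pex13 and Dnttip2 for Tet2 (0.979 to 0.989), and Rai1, Mid1ip1 and Zfp53 for Tet3 (0.938 to 0.945). Among the 7 themselves, Dnmt3b went most closely with Dnmt3a (r = 0.856), Dnmt1 with Tet2 (0.874) and Tet1 with Tet2 (0.852).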

How the data were processed

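Expression was measured on 8 arrays, with 2 of adult marrow, 3 of knockout and 3 of wild-type fetal liver. Per the labels' protocols, RNA was amplified before biotin labelling. The deposited values are intensities on a linear scale; per the submitters' processing notes the authors used RMA, with no version stated. A further deposited table of intensities by exon ID served as an alternative. Precision is limited by how few arrays there are, and p-values rest on the spread among these samples alone.

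Values were log2 transformed without further normalization (array medians 6.20 to 6.27). The platform annotation gave 208881 of 225993 probe sets exactly 1 symbol; 1668 with several and 15444 with none were left out. Of 19958 symbols, 2585 were updated and 118 kept as given. Probe sets were averaged per gene, which can hide changes in part of a transcript. Groups were compared with limma 3.58.1 (R 4.3.3; lmFit, eBayes, 1 coefficient per group), two-sided, on genes and on probe sets, and with diffSplice; tables were made with Python 3.11.15. The fits were tested on simulated data.

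The 7 genes, the lists and the rule for named genes were chosen with earlier results of these data known. The rule took the 7 genes, Hmga2, per pathway list up to 4 genes by p in adult against wild-type fetal cells and up to 2 in knockout against wild type, the 3 most alike genes per member, and the called and extreme probe sets. Probe sets 10446080 and 10446081, the called markers, Igf2bp2 and the list genes called only against knockout fetal liver were added after their values were seen. The background level from olfactory receptor genes gives "at least" folds where the dimmer mean lay below it. Same-numbered arrays did not deviate together from their group means (correlations from -0.04 to 0.11), so the numbers were not taken as pairs. Alternatives were fits of the 2 groups alone, a replicate block, trended and robust variance, array weights, leaving out dim genes or dim probe sets, the median of probe sets, quantile normalization, the exon table, identical probe sets counted once, and each array left out. Promoters and gene names came from RefSeq, GRCm38.p6.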

Additional observations from a re-analysis of the deposited data

How the results depend on the processing

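Of the values of the 7 genes in 3 comparisons and 19 alternatives, 385 kept their direction and their side of the threshold, 12 turned sign and 2 passed the threshold. Dnmt3b was called in both adult comparisons in all 19 alternatives, with log2 fold changes from -2.24 to -1.47 and adjusted p from 0.00235 to 0.0224 against wild-type fetal liver, and from -2.31 to -1.47 and 0.00215 to 0.0209 against knockout fetal liver. Against knockout fetal liver Tet1 passed without adult array 2 (-1.21, adjusted p = 0.0357) and Uhrf1 with medians of probe sets (-1.10, adjusted p = 0.0383). All values that turned sign were uncalled. In knockout against wild-type fetal liver, Dnmt3b was at -0.0292 without dim probe sets, at -0.0033 with quantile normalization and from -0.0213 to 0.0875 with 1 array left out, and Uhrf1 at 0.0024 with medians of probe sets and from -0.0672 to 0.0561 with 1 array left out. In adult against wild-type fetal liver, leaving out 1 array gave from -0.3918 to 0.0130 for Dnmt1, from -0.6921 to 0.1322 for Tet1 and from -0.4664 to 0.8548 for Tet3, the ends being those without 1 adult array each. In adult against knockout fetal liver it gave from -0.8438 to 0.4774 for Tet3, again without 1 adult array each.

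The cause of the moves in counts was not tested. Fits with 1 array left out rested on fewer arrays, yet not all their counts fell. Without wild-type fetal array 3, genes called in adult against knockout fetal liver went from 621 to 1019 higher and from 1158 to 1418 lower. In adult against wild-type fetal liver, genes called higher were 51 with medians, 46 with the 2 groups alone, 74 with the replicate block, 89 with the exon table and 83 to 158 with 1 array left out; genes called lower were 128, 74, 111, 233 and 140 to 416 in the same order. In adult against knockout fetal liver, genes called higher were 219 with medians, 1105 without dim probe sets, 137 with the replicate block, 333 with the exon table and 139 to 1019 with 1 array left out; genes called lower were 543 with medians, 352 with the replicate block and 343 to 1418 with 1 array left out. In knockout against wild-type fetal liver, genes called lower were 1 with the exon table and genes called higher 0 to 1 with 1 array left out. Hmga2 itself was not called in the exon table (adjusted p = 0.391), where it had 2 rows in place of 8 probe sets. Members with unequal probe sets by diffSplice in adult against wild-type fetal liver were 0 with Box's correction, 0 with the 2 groups alone, 1 with the replicate block and 1 to 4 with 1 array left out; in the knockout they were 0 with Box's correction and 0 to 2 with 1 array left out. The arrays share only a replicate number, and not every array correlated best with its own number. The block ended no call of Dnmt3b at the gene level. With the block, Shmt1, Rrm2, Mcm4, Suv39h2 and the markers Cd48, Ctsg and Itga2b lost their call in adult against wild-type fetal liver. In adult against knockout fetal liver Hdac2, Mtap, Idh3a, Neil1 and the markers Itga2b, Vcam1, Tfrc, Cd68, Rag1 and Cdh5 did. Trended variance does not apply to diffSplice and was not run for it.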
